A study of Mus musculus with 20 samples.

Results

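Oxidative stress and metallothionein transcripts were followed in mouse liver through 10 genes, the metallothioneins Mt1 and Mt2, the transcription factor gene Nfe2l2, its inhibitor Keap1, and the target enzymes Nqo1, Hmox1, Gclc, Gclm, Txnrd1 and Srxn1. The genes were taken by symbol from a count table of 55421 genes, each symbol matched 1 row, and all 10 were among the 22867 genes that passed the count minimum and were tested. Bulk poly(A) RNA-seq was available for 20 livers of wildtype mice in 4 groups of 5. Every mouse had received a retro-orbital AAV8 vector that expresses Staphylococcus aureus Cas9 (saCas9) from the hepatocyte promoter Tbg together with a U6-driven guide RNA, against Rosa26 in the control livers and against HIRA in the Hira-guide livers. Livers were taken 3 weeks or 6 months after injection. The HIRA protein loads histone H3.3 into chromatin outside replication. The control livers therefore also carried virus and Cas9. The non-parenchymal cells of a Hira-guide liver are not the target of the Tbg promoter. The mice are labelled female, as in a figure legend of the study, whereas its main text gives males for this time course. All 20 livers are annotated with an age at injection of 6 months. The main text on this time course does not state an age. With the annotated age, the livers taken later also came from older mice, so time after injection and age cannot be told apart.

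Metallothioneins are small cysteine-rich proteins that bind zinc and copper and scavenge radicals. In liver their genes are induced through the metal-sensing transcription factor MTF1, which binds metal response elements, and through glucocorticoid and acute phase signals. NRF2, the product of Nfe2l2, is held in the cytoplasm and marked for degradation by KEAP1 until oxidants or electrophiles modify KEAP1 cysteines, after which NRF2 enters the nucleus. There it binds antioxidant response elements in the promoters of enzymes that make glutathione, reduce thioredoxin and detoxify quinones. Because this control acts on the protein, the transcripts of the target enzymes are the usual readout of the pathway.

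The promoters of Mt1, Mt2 and Srxn1 are shown because they carry the elements through which metallothionein and NRF2 target genes are known to be controlled. Sequences are RefSeq promoter windows of build GRCm38.p6, from 250 bases before to 50 bases after the annotated start, on the strand of the gene, and 8 of the 10 genes had an entry. Capitals mark the metal response element core (TGCACNC or TGCGCNC, either strand) in Mt1 at chr8:94178839-94179138 and Mt2 at chr8:94172368-94172667, and the antioxidant response element core (TGACNNNGC or TGAGNNNGC, either strand) in Srxn1 at chr2:152105274-152105573.
Mt1: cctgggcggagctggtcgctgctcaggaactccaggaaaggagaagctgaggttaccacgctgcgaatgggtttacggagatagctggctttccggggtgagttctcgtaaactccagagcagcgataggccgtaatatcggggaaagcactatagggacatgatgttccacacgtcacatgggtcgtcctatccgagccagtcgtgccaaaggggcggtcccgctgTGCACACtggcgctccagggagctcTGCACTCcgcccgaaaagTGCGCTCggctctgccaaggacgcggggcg
Mt2: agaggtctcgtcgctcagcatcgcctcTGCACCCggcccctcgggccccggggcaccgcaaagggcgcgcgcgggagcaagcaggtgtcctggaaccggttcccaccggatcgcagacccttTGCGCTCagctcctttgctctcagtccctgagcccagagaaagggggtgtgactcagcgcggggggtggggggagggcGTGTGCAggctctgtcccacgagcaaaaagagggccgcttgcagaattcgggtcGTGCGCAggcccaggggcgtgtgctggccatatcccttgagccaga
Srxn1: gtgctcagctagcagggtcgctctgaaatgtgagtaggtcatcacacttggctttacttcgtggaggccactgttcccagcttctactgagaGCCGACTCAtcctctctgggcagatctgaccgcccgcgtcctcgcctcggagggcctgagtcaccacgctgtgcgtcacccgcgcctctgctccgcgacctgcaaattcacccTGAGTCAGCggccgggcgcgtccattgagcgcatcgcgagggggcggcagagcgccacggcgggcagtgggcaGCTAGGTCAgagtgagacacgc
The Mt1 window held 3 metal response element cores, with first bases at -23, 3 and 21 relative to the annotated start. The Mt2 window held 4, at -223, -128, -50 and 5. Positive positions lie after the start. Of 32851 promoter windows of the same length, 25.7% held at least 1 such core and 1.97% held 3 or more. The Gclm window also held 3, the Srxn1 window 1, and the Nfe2l2, Keap1, Nqo1 and Txnrd1 windows none. The antioxidant response element core was present 3 times in Srxn1 and once each in Mt2 (tgactcagc in lower case above, first base 79 bases before the start), Nfe2l2, Gclm and 1 of the 3 annotated Txnrd1 starts, against 27.8% of all windows with at least 1 match and 0.63% with 3 or more. These matches are letters in a short window and not measured binding, and elements outside the windows were not searched.

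In the GRCm38 annotation, Mt2 (ENSMUSG00000031762) lies on chromosome 8 at 94172664-94173568 and Mt1 (ENSMUSG00000031765) at 94179082-94180327, both on the plus strand, with 5514 bases between the end of Mt2 and the start of Mt1. The longest run of bases shared by their transcripts was 20, so reads of both genes can be told apart over most of their length. An antisense gene model, Gm45774, overlaps exons of Mt2 and held 14.1% as many counts as Mt2. An antisense model over Keap1, Gm16754, held 3.49% as many counts as Keap1. Whether counting used the strand is not stated, so reads of these pairs cannot be told apart from the table.

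Library totals ran from 19916430 to 24079736 counts, so every group was sequenced to a like depth. The transcript of the targeted gene, Hira, was lower in the Hira-guide livers by a log2 fold change of -0.48 (SE 0.14) at 3 weeks and -0.10 (SE 0.14) at 6 months, and neither passed edgeR's quasi-likelihood test (adjusted p = 0.197 and 0.794). The study reports loss of HIRA protein by western blot for its CRISPR knockout. The transcript level does not measure the protein. Replicate 5 of the Hira-guide livers at 6 months stood against its label: it held 9 Xist counts and 2041 counts of Y-linked genes, against 6286 to 8436 Xist counts and at most 13 Y-linked counts in the other 19 libraries. Values of the 10 genes that moved by over 1.5 times when this library was left out are also given without it. All 8 hepatocyte markers were present in every group, with a summed level of 83871 to 164510 CPM (TMM-scaled). At 3 weeks, 5 of 9 evening genes of the circadian clock list were called higher in the Hira-guide livers, against 0.114% of all genes called in either direction. Their summed level was 168.6 to 285.4 CPM in controls and 299.7 to 734.4 CPM with the Hira guide, and its part in the results on the 10 genes was not tested.

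Levels are given in CPM, scaled to library size by TMM, within a gene, and in the deposited FPKM, which are per length, between genes. By median FPKM over 20 livers the metallothioneins were the most abundant of the 10 transcripts (Mt1 257 FPKM, Mt2 118 FPKM), followed by both subunits of glutamate-cysteine ligase (Gclm 109 FPKM, Gclc 66.5 FPKM), the thioredoxin reductase gene Txnrd1 (36.6 FPKM), Nfe2l2 (30.3 FPKM) and Keap1 (18.5 FPKM). The heme oxygenase gene Hmox1 (14.3 FPKM), the sulfiredoxin gene Srxn1 (11.5 FPKM) and the quinone reductase gene Nqo1 (10.4 FPKM) were the lowest. The place of Mt2 rested on the controls at 6 months (group median 366 FPKM, against 101 FPKM for Gclm), and in the other 3 groups the Gclm median was above that of Mt2. By CPM per kilobase of exon, Mt1 was still first, but Gclc ranked 2, ahead of Mt2 at 3 and Gclm at 4. The annotated exons of Mt1 together cover the whole gene (1246 bases), which lowers its level on this measure. The ranges of neighbouring genes in this order overlapped. The metallothioneins had the widest ranges, of 26.6 to 2061 FPKM for Mt1 and 10.2 to 1692 FPKM for Mt2.

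Mt1 and Mt2 were among the most variable transcripts between livers of the same group. The pooled within-group SD was 1.55 on the log2 CPM scale for Mt1 and 1.99 for Mt2, which placed them 48th and 15th of 12903 genes with a mean of at least 1 CPM, where the median SD was 0.204. Over the 20 livers the highest Mt1 level was 70.9 times the lowest and the highest Mt2 level 145 times the lowest. Keap1 and Txnrd1 were at the other end, with SDs of 0.088 and 0.1105, lower than those of all but 2.56% and 9.00% of genes, and their highest livers were only 1.28 and 1.29 times their lowest.

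**Figure D1:**
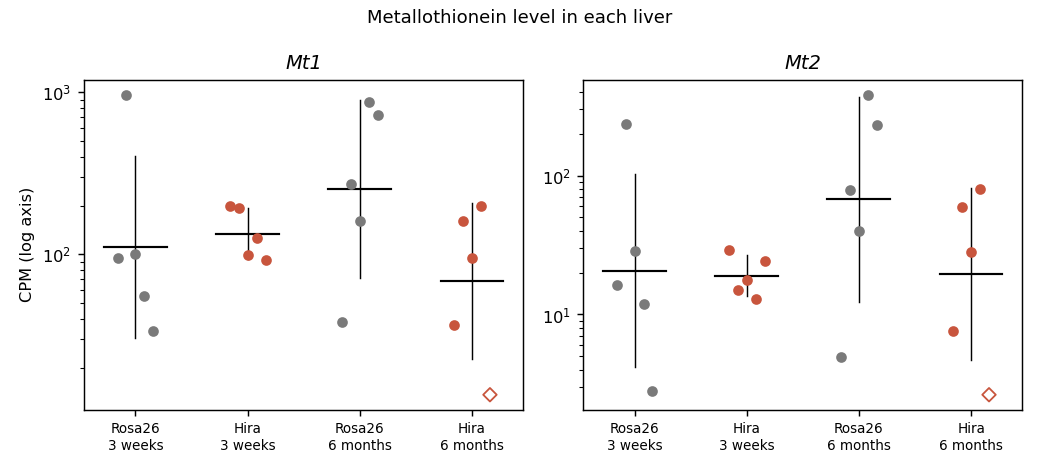
CPM of Mt1 (left) and Mt2 (right) in each of the 20 livers, on log axes, by guide and time after injection. Points are livers, the open diamond is the library with male-type Xist and Y-linked counts, the long bar is the mean of log2 CPM and the vertical line its SD. The groups overlap at both times, and replicate 2 of the controls at 3 weeks (966 CPM of Mt1) stands above the other 4 livers of its group.

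At 3 weeks, Mt1 was at 94.4, 966, 100.3, 55.1 and 33.6 CPM in control replicates 1 to 5. It was at 197.9, 192.6, 99.3, 125.5 and 92.1 CPM in the Hira-guide replicates 1 to 5. The Hira-guide livers were close to each other (within 2.15-fold) and lay inside the range of the controls, which replicate 2 alone extended upward. Mt2 was at 16.3, 235.8, 28.5, 11.9 and 2.79 CPM in the controls and at 29.2, 14.9, 17.6, 13.0 and 24.4 CPM with the Hira guide, with the same control liver on top. The fitted log2 fold change (Hira guide minus Rosa26) was -0.82 for Mt1 (95% CI -2.56 to 0.92, adjusted p = 0.869, edgeR) and -1.57 for Mt2 (95% CI -3.68 to 0.53, adjusted p = 0.734, edgeR). The direction rested on control replicate 2: without it the log2 fold changes were 1.00 and 0.41. The mean of log2 CPM, which weighs each liver equally, was 7.07 ± 0.52 (SD, n = 5) for Mt1 with the Hira guide and 6.80 ± 1.86 (SD, n = 5) in controls, the opposite order to the fitted value.

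At 6 months, Mt1 was at 38.5, 271.6, 160.1, 876.8 and 722.2 CPM in control replicates 1 to 5. It was at 36.5, 159.6, 95.5, 198.9 and 13.6 CPM in the Hira-guide replicates 1 to 5. Of the control livers, 3 (replicates 2, 4 and 5) lay above all 5 Hira-guide livers, while control replicate 1 lay below 3 of them. Mt2 was at 4.91, 79.3, 39.9, 382 and 229.9 CPM in the controls and at 7.59, 59.0, 28.3, 80.7 and 2.64 CPM with the Hira guide, again highest in control replicates 4 and 5. The fitted log2 fold change was -2.04 (SE 0.86, 95% CI -3.83 to -0.24) for Mt1 and -2.05 (SE 1.01, 95% CI -4.15 to 0.06) for Mt2. Neither passed the threshold after adjustment over all genes (adjusted p = 0.252 and 0.336, edgeR), and without the library that stood against its label the log2 fold changes were -1.76 (adjusted p = 0.297, edgeR) and -1.75. With each library left out in turn the value ran from -2.44 to -1.56 for Mt1 and from -2.59 to -1.31 for Mt2, lowest without Hira-guide replicate 4 and highest without control replicate 4 for both. Between times, neither metallothionein passed the test in controls (log2 fold change 6 months minus 3 weeks 0.73 for Mt1 and 1.32 for Mt2) or in Hira-guide livers (-0.49 and 0.85), and these values depended on single livers. The control values were 2.55 and 3.31 without control replicate 2 at 3 weeks, and 0.26 and 0.58 without control replicate 4 at 6 months. The values in Hira-guide livers were -0.21 and 1.14 without the library against its label, and -0.89 and 0.30 without Hira-guide replicate 4 at 6 months. The 4 groups thus overlapped throughout, with median Mt1 levels of 94.4 CPM (controls, 3 weeks), 95.5 CPM (Hira guide, 6 months), 125.5 CPM (Hira guide, 3 weeks) and 271.6 CPM (controls, 6 months).

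The livers with the highest metallothionein levels were also those with the highest acute phase transcripts, the plasma proteins that hepatocytes release in inflammation. The summed level of the 12 acute phase genes, all of which were tested and none of which was at 0, was 43431 CPM in control replicate 2 at 3 weeks, against 11794 to 16960 CPM in the other 4 control livers. It was 10980 to 13548 CPM in the Hira-guide livers at that time. At 6 months it was 25565, 23612 and 22862 CPM in control replicates 2, 4 and 5, the same livers in which Mt1 was highest, against 11680 and 13195 CPM in the other control livers and 10640 to 14197 CPM with the Hira guide. Over 20 livers, deviations from the group mean of the Mt1 and Mt2 mean and of the acute phase list correlated with r = 0.702 (permutation, adjusted p = 0.0647 over 22 relations) and rho = 0.690 (permutation, adjusted p = 0.0356), and with r = 0.789 (permutation, adjusted p = 0.0105) without the library against its label. Without the 2 livers farthest from the median of metallothionein level r was 0.468. Of the 12 acute phase genes, 7 at 3 weeks and 6 at 6 months had an unadjusted p under 0.05 in the guide comparison (medians of -0.60 and -0.52 on the log2 scale), against 8.87% and 15.5% of all genes, and none passed after adjustment. The part of the acute phase in the metallothionein values was not tested. The other cell type lists, fasting and glucocorticoid response genes and both clock lists did not pass over the same 22 relations, of which the erythroid list was nearest (r = 0.569, permutation, adjusted p = 0.297).

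Mt1 and Mt2 rose and fell together from liver to liver. Their within-group deviations correlated with r = 0.968 and rho = 0.928 (permutation, adjusted p = 0.00045 for both over 45 pairs), and r was 0.948 without the 2 livers farthest from the median of Mt1 and 0.962 without the library against its label. The relation was not proportional in counts: the Mt1 to Mt2 count ratio, which does not depend on library depth, ran from 2.29 in control replicate 4 at 6 months, the liver with the most Mt2, to 12.9 in Hira-guide replicate 2 at 3 weeks. The median ratio was 4.65 in controls and 6.78 in Hira-guide livers at 3 weeks, and 3.43 and 3.38 at 6 months. Among 4 comparisons of the log2 ratio, the lowest p was for 6 months against 3 weeks in Hira-guide livers (difference -1.002, two-sided exact permutation p = 0.0317, adjusted p = 0.127), so none held after adjustment.

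**Figure D2:**
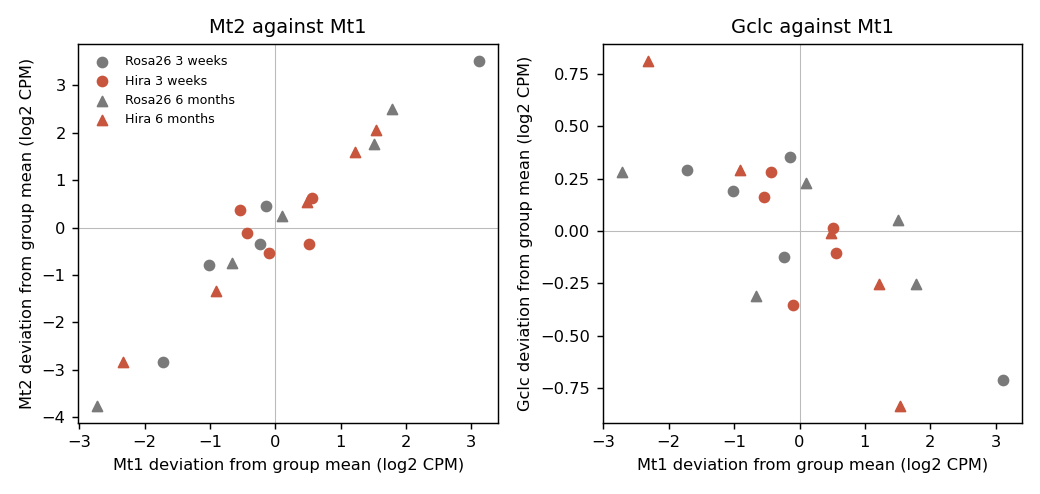
Deviation of each of the 20 livers from its group mean in log2 CPM, Mt2 (left) and Gclc (right) against Mt1, with circles for 3 weeks, triangles for 6 months, grey for the Rosa26 guide and red for the Hira guide. Mt2 follows Mt1 along the diagonal (r = 0.968), while livers with more Mt1 have less Gclc (r = -0.753).

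Nfe2l2 and Keap1 encode the sensor pair. Nfe2l2 was at 83.0, 59.3, 86.1, 87.3 and 77.6 CPM in control replicates 1 to 5 at 3 weeks and at 80.7, 93.9, 100.7, 103.6 and 99.9 CPM with the Hira guide. In the Hira-guide group, 4 of 5 livers were above every control. The log2 fold change was 0.28 (SE 0.12, 95% CI 0.026 to 0.54) with an unadjusted p under 0.05, and it did not hold after adjustment (adjusted p = 0.503, edgeR). At 6 months it was 0.24 (95% CI -0.018 to 0.50, adjusted p = 0.362, edgeR), and 0.125 without the library against its label, which had the highest Nfe2l2 level of all (116.9 CPM). Keap1 stayed between 49.2 and 63.0 CPM in all 20 livers. Its log2 fold change was 0.0056 at 3 weeks (95% CI -0.14 to 0.15) and -0.13 at 6 months (95% CI -0.27 to 0.015), so these intervals leave room for changes of at most 0.27 on the log2 scale.

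**Figure D3:**
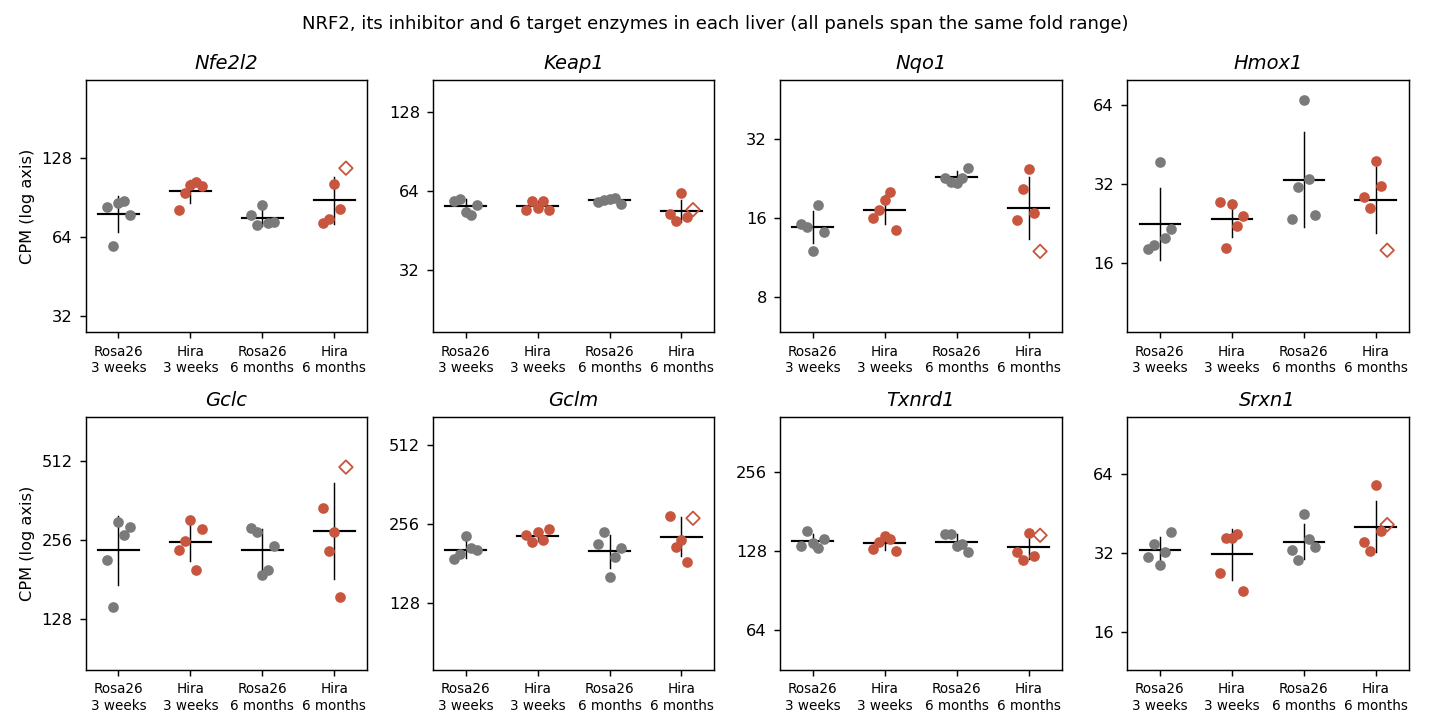
CPM of Nfe2l2, Keap1 and the 6 target enzymes in each of the 20 livers, on log axes that span the same fold range in every panel. Points, open diamond, bars and lines are as for the metallothioneins. Nqo1 in the controls lies between 12.0 and 17.9 CPM at 3 weeks and between 21.7 and 24.9 CPM at 6 months, without overlap.

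Nqo1, which reduces quinones with NADPH and is a classical NRF2 target, was the member nearest to the threshold, and the comparison was between times rather than guides. In the controls it was at 15.3, 14.8, 12.0, 17.9 and 14.1 CPM at 3 weeks. It was at 22.7, 22.0, 21.7, 22.7 and 24.9 CPM in the controls at 6 months. All 5 later livers were above all 5 earlier ones, as were 1.69% of the genes tested in this comparison. The log2 fold change was 0.62 (SE 0.14, 95% CI 0.32 to 0.92, adjusted p = 0.0591, edgeR). The adjusted p was 0.0189 without the library against its label, which is in neither group compared. That library still enters through the shared estimate of spread and the set of genes tested (22703 without it). Over all alternatives the adjusted p ran from 0.00469 with DESeq2 to 0.151 without control replicate 3 at 3 weeks, and the fold stayed under the fold threshold in each. The summed level of the morning clock list, all 5 of whose genes had an unadjusted p under 0.05 in the same comparison (against 12.8% of all genes), was 156.7 to 191.4 CPM at 3 weeks and 50.6 to 128.2 CPM at 6 months. The evening list, with 4 of 9 genes called higher (against 0.162% of all genes called in either direction), was at 168.6 to 285.4 CPM and 361.3 to 575.8 CPM. The part of time of day in Nqo1 was not tested.

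In the Hira-guide livers Nqo1 was at 16.0, 17.1, 18.7, 20.1 and 14.4 CPM at 3 weeks and at 15.8, 20.7, 24.6, 16.8 and 11.9 CPM at 6 months. The later livers lay on both sides of the earlier ones, and the log2 fold change between times was 0.056 (95% CI -0.24 to 0.36), and 0.17 without the library against its label. The guide comparison gave 0.22 at 3 weeks (95% CI -0.079 to 0.52) and -0.34 at 6 months (95% CI -0.64 to -0.047, adjusted p = 0.243, edgeR; -0.23 without the library against its label, the lowest of its group). The change of the guide effect with time was -0.57 (SE 0.20, 95% CI -0.99 to -0.14) with an unadjusted p of 0.0111 and an adjusted p of 0.685 (edgeR), and -0.45 without that library, so a difference between times in the guide effect did not hold over all genes.

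Hmox1, which opens the heme ring and yields biliverdin, iron and carbon monoxide, was raised in single livers. At 3 weeks it was at 18.0, 18.6, 38.9, 19.8 and 21.5 CPM in the controls and at 27.2, 18.2, 26.9, 22.1 and 24.04 CPM with the Hira guide. At 6 months it was at 23.6, 31.0, 66.7, 33.2 and 24.4 CPM in the controls and at 28.4, 25.8, 39.1, 31.4 and 17.8 CPM with the Hira guide. In both control groups replicate 3 stood above the rest. The log2 fold change for the guide was 0.019 at 3 weeks and -0.33 at 6 months (95% CI -0.87 to 0.22). The 6-month value was 0.021 without control replicate 3 and -0.20 without the library against its label. Between times in controls it was 0.62 (95% CI 0.069 to 1.16, adjusted p = 0.318, edgeR), and 0.26 without control replicate 3 at 6 months. The same 2 control livers held the most neutrophil transcripts (47.6 and 22.8 CPM summed over 6 genes, against at most 8.59 CPM in the other 18, with 1 of the 6 at 0 in the Hira-guide group at 3 weeks). The 6-month liver also held the most Kupffer cell and macrophage transcripts (1803 CPM summed over 10 genes, against 160.2 to 1089 CPM). Over 20 livers Hmox1 correlated with the neutrophil list (r = 0.843, rho = 0.770, permutation, adjusted p = 0.0246 and 0.0129 over 11 relations chosen after these values were seen) with the Kupffer list (r = 0.733, rho = 0.579, permutation, adjusted p = 0.0246 and 0.0697) and, negatively, with the hepatocyte list (r = -0.648, rho = -0.603, permutation, adjusted p = 0.0246 and 0.0678). Without both livers r was 0.615, 0.557 and -0.592. Without the library against its label none of the 3 passed (permutation, adjusted p = 0.0839 for each r). In bulk liver, fewer cells of a type and less RNA per cell cannot be told apart, and the part of these cells in the Hmox1 values was not tested.

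Gclc and Gclm encode the catalytic and modifier subunits of glutamate-cysteine ligase, the rate-limiting enzyme of glutathione synthesis. Gclc was at 215.2, 142.8, 299.3, 267.0 and 286.9 CPM in the controls and 234.4, 253.9, 306.3, 197.3 and 281.3 CPM with the Hira guide at 3 weeks. At 6 months it was at 285.0, 274.3, 188.8, 196.7 and 243.1 CPM in the controls and 338.8, 232.4, 275.1, 155.6 and 486.1 CPM with the Hira guide. The Hira-guide livers at 6 months held both the highest level and the lowest but 1 of the series. The log2 fold change for the guide was 0.072 at 3 weeks (95% CI -0.41 to 0.56) and 0.32 at 6 months (95% CI -0.16 to 0.81), and 0.076 at 6 months without the library against its label, which had the highest Gclc. Gclm ranged from 160.2 to 272.7 CPM with log2 fold changes of 0.18 at 3 weeks (95% CI -0.054 to 0.41) and 0.19 at 6 months (95% CI -0.038 to 0.42), both short of the threshold. The 6-month value was 0.12 without control replicate 3.

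Txnrd1, which returns thioredoxin to its reduced form, was nearly level over the series (118.5 to 153.1 CPM), with log2 fold changes for the guide of -0.023 (95% CI -0.19 to 0.14) and -0.060 (95% CI -0.23 to 0.11). The latter was -0.098 without the library against its label and -0.020 without Hira-guide replicate 2. Srxn1, which repairs over-oxidized peroxiredoxins, ranged from 22.9 CPM in Hira-guide replicate 5 at 3 weeks to 58.0 CPM in Hira-guide replicate 3 at 6 months. Its guide log2 fold changes were -0.040 at 3 weeks and 0.21 at 6 months (95% CI -0.11 to 0.53), and 0.052 at 6 months without Hira-guide replicate 3. Between times in Hira-guide livers it was 0.36 (SE 0.16, 95% CI 0.033 to 0.68) with an unadjusted p of 0.0326, which did not hold after adjustment (adjusted p = 0.519, edgeR). It was 0.21 without the same liver.

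**Figure D4:**
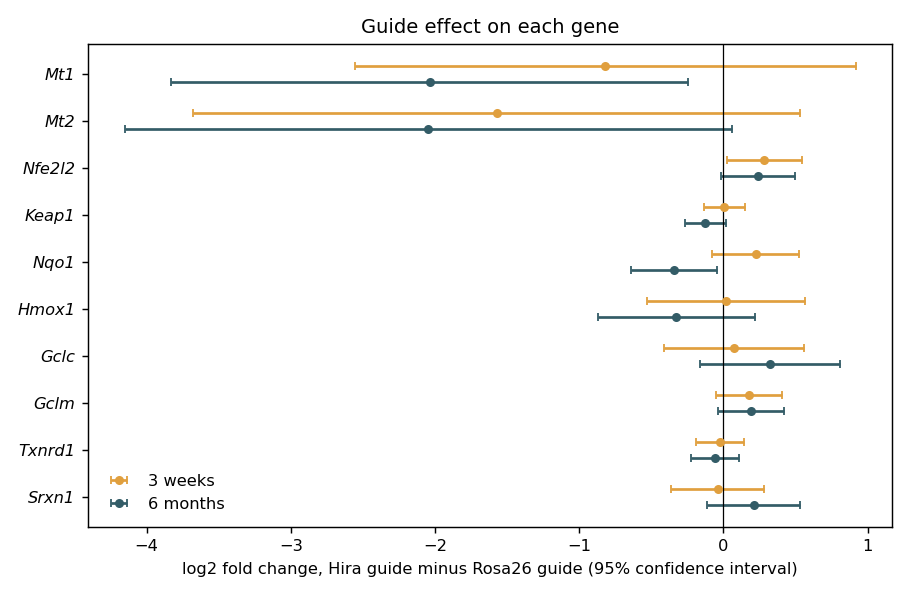
Log2 fold change (Hira guide minus Rosa26 guide) of the 10 genes at 3 weeks and at 6 months with 95% confidence intervals from the edgeR fit of 20 libraries. The metallothionein intervals are over 3 log2 units wide, while those of Keap1 and Txnrd1 stay within 0.27 of 0 at both times.

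Over the whole set, none of the 10 genes was called (adjusted p under 0.05 and an absolute log2 fold change over 1) for the guide at 3 weeks or 6 months, where 0.114% and 0.332% of all genes were called. None was called for time in controls (0.162% of all genes) or in Hira-guide livers (0.0569%), or for the change of the guide effect with time, for which no gene was called (0.0%). With an adjusted p under 0.05 and no limit on the fold, the count was again 0 of 10 in each comparison (0.197%, 1.31%, 0.324%, 0.0656% and 0.0% of all genes). At an unadjusted p under 0.05 edgeR gave 1 of 10 at 3 weeks (Nfe2l2, against 8.87% of all genes), 2 at 6 months (Mt1 and Nqo1, against 15.5%), 2 for time in controls (Nqo1 and Hmox1, against 12.8%), 1 for time in Hira-guide livers (Srxn1, against 8.95%) and 1 for the change of the guide effect (Nqo1, against 6.62%), with Mt1 and Nqo1 at 6 months both lost without the library against its label (0 of 10, against 17.7% of all genes). DESeq2 called none of the 10 either. At an unadjusted p under 0.05 it had 1, 4, 2, 1 and 1 of them in the same order of comparisons, against 7.9%, 14.3%, 11.6%, 7.84% and 5.42% of all genes. The median log2 fold change of the 10 genes was 0.012 at 3 weeks and -0.093 at 6 months, against -0.0059 and 0.029 over all genes tested.

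Of 45 pairs among the 10 genes, 6 had within-group deviations that correlated after adjustment, 4 positively and 2 negatively. The positive pairs were Mt1 with Mt2, Gclc with Gclm (r = 0.793, rho = 0.833, permutation, adjusted p = 0.0036 and 0.00338), Keap1 with Srxn1 (r = 0.713, rho = 0.677, permutation, adjusted p = 0.0173 and 0.0261) and Keap1 with Txnrd1 (r = 0.693, rho = 0.684, permutation, adjusted p = 0.0215 and 0.0261). Both negative pairs joined a metallothionein to Gclc: Mt1 with r = -0.753 and rho = -0.692 (permutation, adjusted p = 0.012 and 0.0343) and Mt2 with r = -0.694 and rho = -0.590 (permutation, adjusted p = 0.0215 and 0.143). In control replicate 2 at 3 weeks, for example, Mt1 was the highest of the series and Gclc the lowest. Without the library against its label 4 pairs passed on r, Mt1 with Mt2, Mt1 with Gclc (r = -0.689, permutation, adjusted p = 0.0456), Keap1 with Srxn1 (permutation, adjusted p = 0.0456) and Gclc with Gclm (r = 0.758, permutation, adjusted p = 0.0149), and Mt2 with Gclc and Keap1 with Txnrd1 were at 0.102 and 0.0502. Only 2 of these 4, Mt1 with Mt2 and Gclc with Gclm, also passed on rho, and rho of Mt1 with Gclc and of Keap1 with Srxn1 was at a permutation adjusted p of 0.0782 and 0.0573. Without the 2 livers farthest from the median of the first gene, r was -0.702 for Mt1 with Gclc, 0.680 for Gclc with Gclm, 0.525 for Keap1 with Srxn1 and 0.518 for Keap1 with Txnrd1. Nqo1 and Hmox1 took part in none of the 6 pairs, and Nfe2l2 did not correlate with any target enzyme after adjustment.

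**Figure D5:**
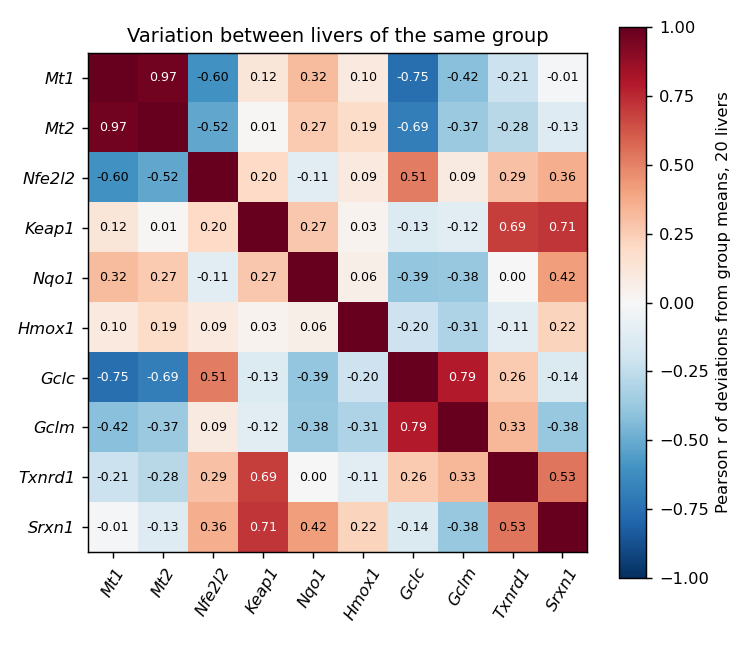
Pearson r between the 10 genes over deviations of 20 livers from their group means in log2 CPM, from -1 (blue) to 1 (red). The dark red blocks are Mt1 with Mt2 (0.97) and Gclc with Gclm (0.79), and the dark blue cells are Gclc with Mt1 (-0.75) and with Mt2 (-0.69).

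The morning clock list stood beside the glutamate-cysteine ligase genes. The mean deviation of Gclc and Gclm correlated with that of the list with r = 0.535 (permutation, adjusted p = 0.297 over 22 relations), and with r = 0.737 (permutation, adjusted p = 0.0105) but rho = 0.647 (permutation, adjusted p = 0.0782) without the library against its label. Without the 2 livers farthest from the median r was 0.594 over the remaining 18. The part of time of day in these levels was not tested.

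The genes most like the members over the 20 livers were ranked among 12893 genes as a description, with group differences left in. For the mean of Mt1 and Mt2 these were Tnip2 (r = 0.858), Prtn3 (r = 0.835), Rdh5 (r = 0.835), Stap2 (r = 0.820) and Slc37a1 (r = 0.814), after the antisense model Gm45774 (r = 0.913) that overlaps Mt2. The lowest r was that of Ephx1, the microsomal epoxide hydrolase gene (r = -0.872, chosen after the values were seen). For the mean of Nqo1, Gclc, Gclm, Txnrd1 and Srxn1 they were Pir (r = 0.813), Col5a3 (r = 0.727), Aox1 (r = 0.718), Tmx4 (r = 0.714) and Unkl (r = 0.706), with the gene model 4930402H24Rik (r = 0.708) ahead of Unkl. Gene models were not counted among the 5 of either list. All points share library, depth and dissection, so these values carry no test.

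Around the 10 genes, 93 further genes of the same pathways were listed and 90 were tested. None was called in any of the 5 comparisons. A single gene had an adjusted p under 0.05: Gsta4, the glutathione transferase that conjugates the lipid peroxidation product 4-hydroxynonenal, was higher in all 5 Hira-guide livers than in any control at 3 weeks (as were 1.45% of all genes), with a log2 fold change of 0.79 (SE 0.16, adjusted p = 0.0423, edgeR), under the fold threshold. At 6 months its value was 0.47 (adjusted p = 0.144, edgeR). Its relatives Gsta1 (2.57 at 3 weeks, adjusted p = 0.219, edgeR) and Gsta2 (1.35, named as a paralog after its values were seen) did not pass, and these paralogs share sequence, so their counts are uncertain. Of the 25 NADPH enzymes and other known NRF2 targets, 18 had a log2 fold change above 0 at 3 weeks and 18 at 6 months (medians of 0.19 and 0.16), against 49.0% and 54.3% of all genes. At each time 4 of the 25 had an unadjusted p under 0.05, against 8.87% and 15.5% of all genes.

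Among 13 partners and regulators of NRF2, Bach1, the repressor that competes at antioxidant response elements, was at 0.44 on the log2 scale at 3 weeks (adjusted p = 0.141, edgeR, all 5 Hira-guide livers above all controls, as for 1.45% of all genes) and at 0.014 at 6 months. Dpp3, which binds KEAP1, was at -0.30 at 6 months (adjusted p = 0.0894, edgeR). Of 12 genes of glutathione synthesis, recycling and peroxidases none had an unadjusted p under 0.05 for the guide at either time, and the nearest, the plasma glutathione peroxidase gene Gpx3, was at 0.58 at 6 months (adjusted p = 0.339, edgeR). Of 16 thioredoxin, peroxiredoxin and sulfoxide repair genes, 6 had log2 fold changes above 0 at 3 weeks (median -0.027), against 49.0% of all genes. At that time 1 had an unadjusted p under 0.05, against 8.87% of all genes. At 6 months, 14 of the 16 had log2 fold changes below 0 (median -0.15), against 45.7% of all genes. Of the 16, 5 had an unadjusted p under 0.05, against 15.5% of all genes. The log2 fold change was above 0 for 1 of these, the sestrin gene Sesn2 (0.38, chosen after its values were seen), and below 0 for the other 4, among them Sesn3 at -0.39 (adjusted p = 0.1505, edgeR) and Prdx6 at -0.23. Of 5 superoxide dismutase and catalase genes, Ccs, the copper chaperone of superoxide dismutase, was lower in all 5 Hira-guide livers at 6 months at -0.46 (SE 0.13, adjusted p = 0.0796, edgeR), as were 1.74% of all genes.

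In the heme and iron list of 11 tested genes, the haptoglobin gene Hp, itself an acute phase gene, was at -1.07 at 3 weeks (adjusted p = 0.196, edgeR, all 5 Hira-guide livers below all controls, as for 1.24% of all genes), and the biliverdin reductase gene Blvra at -0.41 at 6 months (adjusted p = 0.1101, edgeR). In the zinc list of 8 tested genes, which excludes Mt3 and Mt4 for want of counts, the zinc exporter gene Slc30a1 was at 0.39 at 3 weeks (adjusted p = 0.201, edgeR) and at -0.0080 at 6 months, and 2 of the 8 had an unadjusted p under 0.05 at 3 weeks and none at 6 months. Over all 90 genes the median log2 fold change was -0.0012 at 3 weeks and 0.021 at 6 months, and 13 and 15 had an unadjusted p under 0.05, against 8.87% and 15.5% of all genes tested.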

How the data were processed

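Poly(A) RNA of 20 mouse livers was sequenced from directional libraries. The authors trimmed reads with Trim Galore 0.4.4, aligned them to mm10 with STAR 2.5.3a and deposited raw counts per gene. The methods name HOMER for counting, whereas the submitters' processing notes name HTSeq and Cufflinks. No source says whether strand was used. FPKM values are deposited too, and their table has blank cells and was used only for levels between genes and as an alternative. No column was left without a sample.

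Genes with at least 10 counts in total (22867) were fitted with the edgeR 4.0.16 quasi-likelihood test (glmQLFit, glmQLFTest, TMM, R 4.3.3) with 4 group means over 20 libraries, and p-values were adjusted by Benjamini-Hochberg over all genes tested. A gene was called at an adjusted p under 0.05 and an absolute log2 fold change over 1, the thresholds of the study. At these thresholds the study reports many more genes for the guide at both times than were called here. The cause of that difference was not tested. CPM are TMM-scaled, with a prior count of 2 for log2 CPM. In data simulated for the 3-week comparison over 22867 genes, 84 of 100 genes changed 2-fold and 99 of 100 changed 4-fold had an adjusted p under 0.05. There were 5 false calls. The limit on the fold was not applied there, and only well-counted genes were changed. These shares are therefore not the recovery by the call rule, or that for transcripts as variable as Mt1 and Mt2. Alternatives were other scaling, count minimums, DESeq2 1.42.0, limma 3.58.1 (voom, and log2 FPKM with a pseudocount of 1 or 0.1), the replicate number as a block, only the libraries compared, and each library left out. Correlations used deviations from group means and 100000 within-group permutations, of which the smallest p possible is 1e-05. Gene models were taken from GENCODE M21.

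All 10 members were named, with the 1 or 2 genes of each pathway list with the smallest p over both guide comparisons, and the 5 genes most like each member group. The members and lists were chosen with earlier results of these data known, and Gsta2, Sesn2, Ephx1, the Hmox1 correlations and the Mt1 to Mt2 ratio were added after seeing the data. The labels number replicates but do not say in so many words that each is a separate mouse, so p-values measure the spread between these livers.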

Additional observations from a re-analysis of the deposited data

Results flagged for a closer look

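Single livers that stood far from the other 4 of their group were sought as a gap to the nearest liver over the range of the group, against a 95% critical value of 0.71 for 5 samples. On the log2 CPM scale, 1 of 40 groups over the 10 genes passed: Hmox1 in the controls at 3 weeks, where replicate 3 (38.9 CPM, against 18.0 to 21.5 CPM) had a gap of 0.769 of the range.

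On the CPM scale, added after seeing the data, 4 of the 40 groups passed. These were the same Hmox1 value with 0.832, Hmox1 in control replicate 3 at 6 months with 0.776 (66.7 CPM, against 23.6 to 33.2 CPM), and Mt1 and Mt2 in control replicate 2 at 3 weeks with 0.928 and 0.89. Chance gives about 1 in 20 groups where values are normally distributed. The CPM of Mt1 and Mt2 are skewed, so the rate on this scale is not known, and neither gene passed on the log2 scale. The 4 values come from 3 livers, so they are not independent.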

How the results depend on the processing

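The number of members called was 0 in all 5 comparisons under every alternative run and with each library left out. With an adjusted p under 0.05 alone, Nqo1 passed for time in controls with the filterByExpr minimum (adjusted p = 0.0396), with DESeq2 (0.00469), with edgeR on the libraries compared (0.021) and without Hira-guide replicate 1, 3 or 5 at 6 months (0.0189 to 0.0463), and not otherwise. Log2 fold changes changed sign as follows, all without a call. Mt1 for the guide at 3 weeks was 0.27 with limma-voom and 0.28 with both FPKM pseudocounts. Mt2 for the difference between times in Hira-guide livers went from 0.85 to -0.0078 with an FPKM pseudocount of 0.1. Txnrd1 was 0.0058 with both FPKM pseudocounts for the guide at 3 weeks, and for time in controls 0.0060 with DESeq2 size factors, 0.0082 with filterByExpr, 0.0061 with DESeq2, and 0.0063 and 0.0064 with FPKM pseudocounts of 1 and 0.1. Gclc for time in controls was 0.00086 with limma-voom. Gclm for time in Hira-guide livers was -0.0045 with DESeq2 size factors and with DESeq2, -0.014 with limma-voom, -0.0067 with the replicate block and -0.015 on the libraries compared, and its change of guide effect was -0.0012 with DESeq2 size factors and -0.0011 with DESeq2. The cause of these changes was not tested.

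Some log2 fold changes also changed sign with 1 library left out. For the guide at 3 weeks, they ran from -1.10 to 1.00 for Mt1, from -1.88 to 0.41 for Mt2, from -0.0214 to 0.02955 for Keap1, from -0.06067 to 0.28 for Hmox1, from -0.06888 to 0.16 for Gclc, from -0.05001 to 0.01208 for Txnrd1, from -0.11 to 0.0607 for Srxn1. For the guide at 6 months, they ran from -0.47 to 0.02069 for Hmox1. For the difference between times in controls, they ran from -0.17 to 0.05932 for Gclc, from -0.08153 to 0.05919 for Gclm, from -0.0325 to 0.02867 for Txnrd1. For the difference between times in Hira-guide livers, they ran from -0.07673 to 0.17 for Nqo1, from -0.02371 to 0.39 for Gclc, from -0.0644 to 0.07537 for Gclm. For the change of the guide effect with time, they ran from -2.46 to 0.26 for Mt2, from -0.16 to 0.04144 for Nfe2l2, from -0.61 to 0.004453 for Hmox1, from -0.05673 to 0.08993 for Gclm, from -0.08305 to 0.002581 for Txnrd1. The value of Mt1 and Mt2 at 3 weeks turned without control replicate 2, and that of Hmox1 at 6 months without control replicate 3. Pairs correlated on r numbered 6 with all libraries and 4 without Hira-guide replicate 5 at 6 months.

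Replicate numbers are shared by the 4 groups, but not every same-numbered pair of livers deviated together (r from -0.309 to 0.335 over 30 pairs with a median of 0.0793, 14 of them over 0.1, against a median of -0.0355 for pairs of other numbers, over 12903 genes), and 5 of 20 libraries correlated best with their own number. The numbers were therefore not taken as pairs. With the replicate block, 0 members were called in each comparison, and over all genes the count of calls went from 26 to 27 at 3 weeks, 76 to 72 at 6 months, 37 to 61 for time in controls and 13 to 26 for time in Hira-guide livers. In that fit Nqo1 for time in controls had an adjusted p of 0.0508, and among the pathway genes Ccs at 6 months (0.033) and Gsta2 at 3 weeks (0.0496) came under 0.05. Over all genes, DESeq2 called 64, 127, 157 and 74 genes in the same 4 comparisons, limma-voom 13, 71, 27 and 6, and edgeR on only the libraries compared 61, 0, 67 and 8. The fits of log2 FPKM called 13, 17, 9 and 4 genes with a pseudocount of 1 and 24, 53, 24 and 11 with 0.1. The block also moved the guide log2 fold change of Mt1 at 3 weeks from -0.82 to -0.011 and that of Mt2 from -1.57 to -0.50, and that of Mt2 between times in Hira-guide livers from 0.85 to 0.022, all without a call or a change of sign. It enlarged the Mt1 values between times, from 0.73 to 1.43 in controls and from -0.49 to -0.86 in Hira-guide livers, also without a call. The metallothionein intervals are wide (95% CI -3.83 to -0.24 for Mt1 at 6 months), so a missing call there does not show that the groups are alike.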
